A study of Caenorhabditis elegans with 30 samples.

Results

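Transcript levels after 24h exposure to AZT were compared with those after 24h exposure to d4T, each at 100μM, in whole wild-type N2 nematodes. The comparison rested on 6 of the 30 RNAseq libraries of the series, 3 per exposure, chosen by their labels, and covered all genes with enough counts. Nematodes were grown on OP50 bacteria, moved to drug plates as L4 larvae and meshed to remove eggs and bacteria before freezing, so that each library pooled many nematodes. The other 24 libraries held unexposed nematodes, nematodes on 0.033% DMSO and nematodes on 100μM FLT, each after 24h or 72h, and AZT and d4T after 72h. Each exposure had its own sequencing lane, and lane and exposure cannot be told apart. It is not stated for these libraries which cultures were shared, and the p-values measure the spread between the libraries.

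AZT (zidovudine) and d4T (stavudine) are thymidine analogues. AZT carries an azido group on the sugar, where d4T has a double bond in the sugar ring and no azido group. Cells take such nucleosides up through nucleoside transporters, thymidine kinases phosphorylate them, and the triphosphates end the growing DNA chain in reverse transcription. The mitochondrial DNA polymerase can also use them, and the adult hermaphrodite has dividing and meiotic nuclei in its germ line only, while its somatic cells no longer divide.

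The library labelled d4T replicate 2 stood apart from its group. Total counts on genes were 18.7, 15.9 and 25.4M with AZT and 20.9, 20.9 and 24.2M with d4T, so that depth did not set it apart. Pearson correlations of log2 CPM over the genes tested, where CPM are counts scaled to a common library size of 1M, were 0.987 between this library and each of the 3 AZT libraries. They were 0.914 and 0.933 between it and d4T replicates 1 and 3, which correlated with each other at 0.987. Among themselves the AZT libraries correlated at 0.989 to 0.99. Replicate 2 correlated at 0.975 to 0.978 with the unexposed libraries, at 0.938 to 0.974 with DMSO and at 0.921 to 0.962 with FLT. rRNA genes held 4.94, 0.27 and 0.625% of counts in d4T replicates 1, 2 and 3 and 0.514 to 0.672% with AZT. Reads assigned to no gene were 25.3, 14.7 and 20% with d4T and 13.1 to 14.5% with AZT. The counts and differences at 24h below are given with all libraries and, where so named, without replicate 2, and the part of RNA composition in the differences was not tested.

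**Figure D1:**
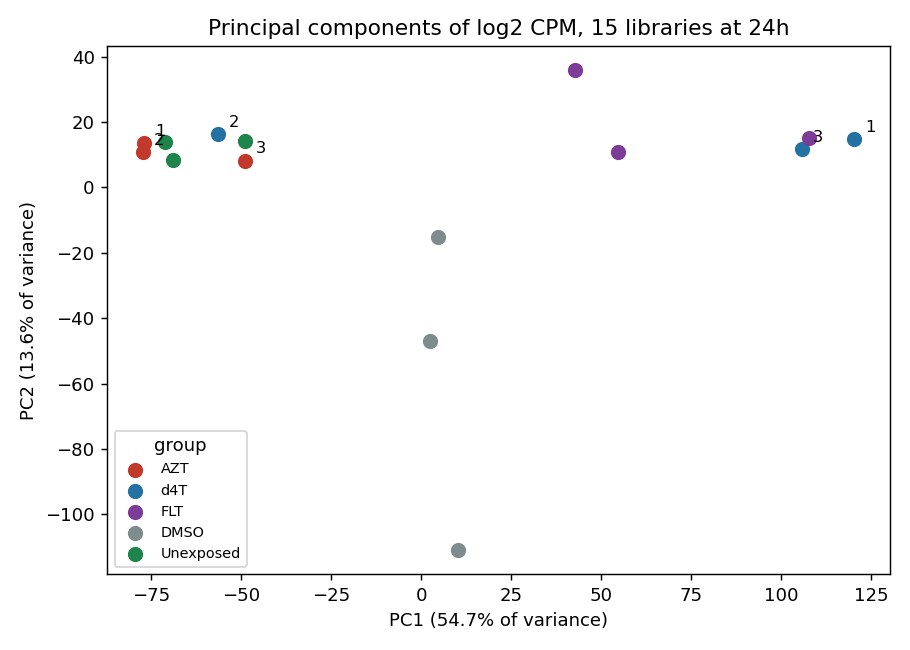
Principal components of log2 CPM in the 15 libraries at 24h, with component 1 on the horizontal and component 2 on the vertical axis (54.7% and 13.6% of the variance). Points are libraries, colours are groups, and the numbers mark the replicates of AZT and d4T. On component 1, d4T replicate 2 lies among the AZT and unexposed libraries, and d4T replicates 1 and 3 lie at the other end with 1 FLT library.

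The position of replicate 2 was described gene by gene. Without it, 7327 genes were called and differed by at least 1 on the log2 scale, and in each the place of replicate 2 was put on a line from the AZT mean (0) to the mean of d4T replicates 1 and 3 (1). The median place was 0.0782, with quartiles of -0.0429 and 0.205. In 228 genes (3.11%) it was nearer to d4T than to AZT, and in 33.3% it lay past the AZT mean, on the side away from d4T. Each AZT library, placed in the same way against the mean of the others, had a median of -0.0629, -0.0535 and 0.109. The unexposed libraries lay at 0.0342 to 0.12, DMSO at 0.354 to 0.554 and FLT at 0.512 to 0.91 on the same line. By these medians d4T replicate 2 and the unexposed libraries lay close to AZT, FLT reached farthest towards d4T replicates 1 and 3, and DMSO was in between. The genes were chosen on the AZT, d4T replicate 1 and d4T replicate 3 libraries, so that these places are a description.

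**Figure D2:**
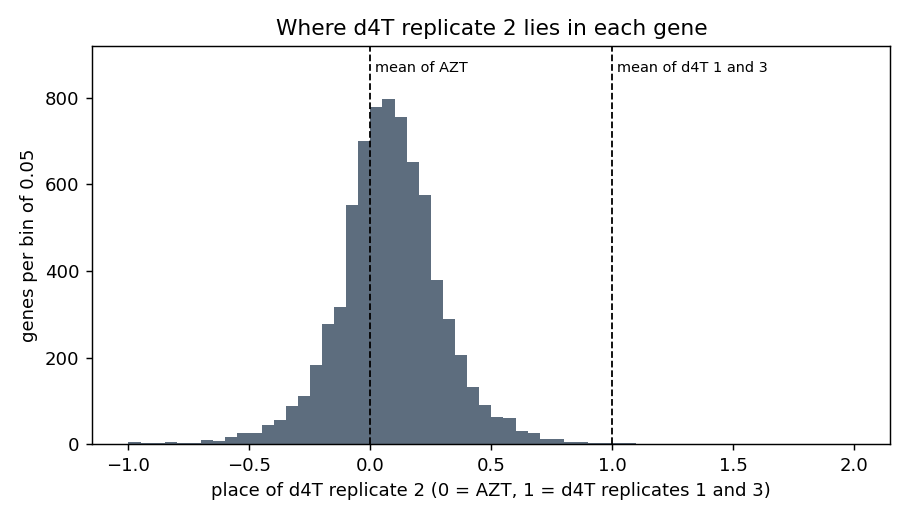
Place of d4T replicate 2 in 7327 genes (horizontal axis, no unit; 0 is the AZT mean and 1 the mean of d4T replicates 1 and 3) against the number of genes per bin of 0.05 (vertical axis). The bars centre near 0, with a median of 0.0782, and 228 genes lie above 0.5.

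Of 16048 genes tested with all libraries, 4731 (29.5%) differed between AZT and d4T at an adjusted p under 0.01. Of these, 1523 (9.49%) were higher and 3208 (20%) lower with AZT. Without d4T replicate 2, 10131 of 16367 genes (61.9%) differed, 5075 (31%) higher and 5056 (30.9%) lower. Of the 4731 genes, 4724 were also called without replicate 2 in the same direction, which is 99.9% of the first list and 46.6% of the second. The differences were unequal in size, since 464 genes were more than 2-fold higher and 2588 more than 2-fold lower with AZT, and 15 and 1082 passed 4-fold. The median log2 difference over all genes, given as AZT minus d4T here and below, was -0.198 with all libraries and -0.265 without replicate 2. Scaling by library totals shifted the differences by a median of -0.126.

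The number of calls depended on which libraries gave the estimate of the spread. In an edgeR fit of the 6 libraries alone 0 genes passed, with 4430 of 13313 genes at an unadjusted p under 0.05. In the 15 libraries of 24h alone 3 genes passed, asm-3, asp-14 and pud-4, named because the count is small. Without d4T replicate 2 the same fits called 10522 and 9086 genes. Leaving out d4T replicate 1 or 3 in its place left 772 and 811 calls in all 30 libraries, and leaving out AZT replicate 1, 2 or 3 left 1046, 1238 and 2411. DESeq2 called 6133 genes with all libraries and 10373 without replicate 2. Single genes depended on the libraries in the same way. Among the called genes named below, bir-1, cdc-6, cep-1, cku-80, clk-1, dhfr-1, dhod-1, dhp-2, ent-2, ent-6, gas-1, him-5, hmg-5, irg-5, mtss-1, ndub-3, pbs-4, pgl-2, pole-2, thk-1 and zhp-1 lost their call when any 1 library of the 6 other than d4T replicate 2 was left out. KEF34_r01, KEF34_r02, gst-35, hsp-16.2, msp-50, syp-1 and ugt-37 lost it without d4T replicate 1, d4T replicate 3, AZT replicate 1 or AZT replicate 2, and ND5 without d4T replicate 1, d4T replicate 3, AZT replicate 1 or AZT replicate 3. dpyd-1, rhy-1, vit-2 and vit-6 lost it without d4T replicate 1, d4T replicate 3 or AZT replicate 1, and ND1 without d4T replicate 1, AZT replicate 1 or AZT replicate 3. wee-1.1 lost it without either of d4T replicates 1 and 3, vit-5 without d4T replicate 1 or AZT replicate 1, gst-21 without d4T replicate 1 or AZT replicate 2, elt-2 without d4T replicate 1 and cki-1 without d4T replicate 3. The other called genes named below kept their call whenever 1 of the 6 libraries was left out of all 30. In the 6 libraries alone none of the named genes passed, and in the 24h libraries alone only asm-3, asp-14 and pud-4 did.

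**Figure D3:**
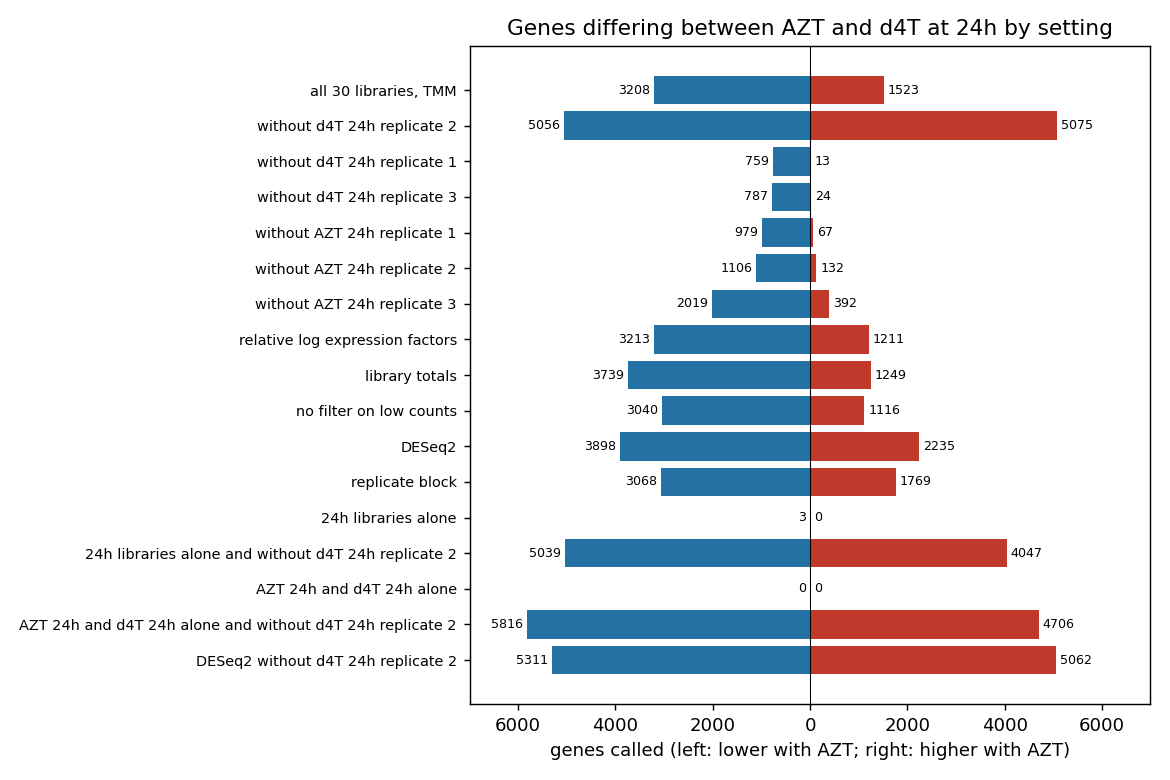
Number of genes called at an adjusted p under 0.01 in each fit (vertical axis), higher with AZT to the right and lower with AZT to the left (horizontal axis, genes). The fit of the AZT and d4T libraries alone calls 0 genes, and the 4 fits without d4T replicate 2 call 9086 to 10522.

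In 4849 of 16048 genes (30.2%) the 3 AZT libraries did not overlap the 3 d4T libraries, and 2757 (17.2%) of the genes tested were also called in both fits, 1142 higher and 1615 lower with AZT. In 175 of these replicate 2 was nearer to the other d4T libraries than to AZT, 53 of them higher and 122 lower with AZT. The following genes were taken from these 175, pud-4, asm-3, asp-14, irg-5 and argk-1 after their values were seen. For the 175 the choice itself fixed that the groups did not overlap and that replicate 2 was nearer to d4T. The gene with the smallest adjusted p in the all-library fit was pud-4, whose protein is abundant in dauer larvae and daf-2 mutants. It had 25.9, 21.3 and 28.18 CPM with AZT and 153, 172 and 159.6 CPM with d4T. The log2 difference was -2.68 ± 0.26 (SE, adjusted p = 1.37e-06), and it was -2.58 ± 0.26 without replicate 2. DMSO had 15.5 ± 7.28 CPM (SD, n = 3), unexposed nematodes 39.9 ± 6.93 and FLT 301 ± 47.7.

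The metallothionein mtl-2, which binds metals, had 89.6, 90.1 and 81.3 CPM with AZT and 339, 216 and 353 CPM with d4T, a log2 difference of -1.80 ± 0.20 (adjusted p = 1.13e-05). Replicate 2 was lower than the other d4T libraries and still above every AZT library. DMSO had 228 ± 36.4 CPM, so that AZT was below and d4T replicate 2 close to its DMSO control. The acid sphingomyelinase gene asm-3 had 27.7, 26.6 and 44.6 CPM with AZT and 279, 103 and 269.8 CPM with d4T (log2 difference -2.72 ± 0.30, adjusted p = 1.13e-05, and -2.997 ± 0.24 without replicate 2), with 7.92 ± 1.56 CPM in DMSO. The aspartyl protease gene asp-14 had 178, 151 and 163 CPM with AZT and 389.9, 332 and 346 CPM with d4T. Its log2 difference was -1.12 ± 0.15 (adjusted p = 8.73e-05) and hardly moved without replicate 2, at -1.11 ± 0.15. Both genes were above DMSO in every AZT and every d4T library.

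The infection response gene irg-5 had 68.5, 53.1 and 28.4 CPM with AZT and 150.5, 122 and 102 CPM with d4T (log2 difference -1.32 ± 0.36, adjusted p = 0.0062, and -1.28 ± 0.41 without replicate 2). AZT replicate 3 was the lowest library. The arginine kinase gene argk-1, which buffers ATP, had 6.29, 4.08 and 4.92 CPM with AZT and 24.5, 12.26 and 29.9 CPM with d4T (log2 difference -2.12 ± 0.32, adjusted p = 0.000221, and -2.36 ± 0.29 without replicate 2). The pharyngeal muscle myosin gene myo-2 had 6.71, 8.52 and 5.75 CPM with AZT and 39, 13.9 and 17.7 CPM with d4T (log2 difference -1.75 ± 0.32, adjusted p = 0.000542, and -1.97 ± 0.30 without replicate 2). In all 3 genes the d4T libraries lay above the AZT libraries, and the lack of overlap was a condition of their choice.

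Higher with AZT in the same manner was msra-1, a methionine sulfoxide reductase that repairs oxidised methionine. It had 133, 137 and 174 CPM with AZT and 37.2, 64.7 and 34.1 CPM with d4T (log2 difference 1.71 ± 0.23, adjusted p = 8.68e-05, and 2.11 ± 0.21 without replicate 2). Both exposures were below DMSO, at 462 ± 134 CPM, and below unexposed nematodes, at 429 ± 19.6 CPM. Its annotation overlaps insc-1 on the opposite strand, and since the sources used here do not give the strand option of the counting, reads of the pair may be mixed. The same holds below for acn-1, atic-1, col-93, cysl-2, dhp-2, dut-1, egl-9, ent-1, gas-1, lpr-3, lys-8, pbs-4, pgl-2, ppat-1, rhy-1, rnr-2, skn-1, thk-1, tyms-1, ugt-37, vit-2 and wee-1.1, each of which overlaps a gene on the opposite strand. On the same strand ech-9, egl-9, gas-1, gst-4, pgl-2, rnr-1, skn-1, syp-1 and ugt-37 overlap another gene. Y38H6C.21, a gene without a named product, had 4.78, 4.151 and 6.41 CPM with AZT and 1.11, 1.05 and 1.01 CPM with d4T (log2 difference 2.28 ± 0.28, adjusted p = 4.53e-05, and 2.33 ± 0.32 without replicate 2). DMSO had 12.8 ± 2.47 CPM, above both exposures.

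The glutathione S-transferase gene gst-21 had the largest log2 difference among the genes higher with AZT that passed in both fits without overlap and reached 5 CPM. Its levels were 22.9, 24.8 and 5.88 CPM with AZT and 2.68, 2.44 and 3.68 CPM with d4T (log2 difference 2.59 ± 0.58, adjusted p = 0.0016, and 2.53 ± 0.68 without replicate 2). AZT replicate 3 was nearer to the d4T libraries than to the other AZT libraries, and unexposed nematodes spread widely, at 33.7 ± 24.4 CPM. Its relative gst-35 had 32.8, 33.4 and 5.71 CPM with AZT and 3.49, 6.77 and 4.64 CPM with d4T, and its groups overlapped. The UDP-glucuronosyltransferase gene ugt-37 had 5.26, 5.46 and 0.834 CPM with AZT and 0.707, 0.721 and 0.696 CPM with d4T, with the same AZT library low. Both were called, gst-35 with a log2 difference of 2.27 ± 0.57 (adjusted p = 0.00378) and 2.60 ± 0.70 without replicate 2, and ugt-37 with 2.42 ± 0.66 (adjusted p = 0.00597) and 2.48 ± 0.75.

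**Figure D4:**
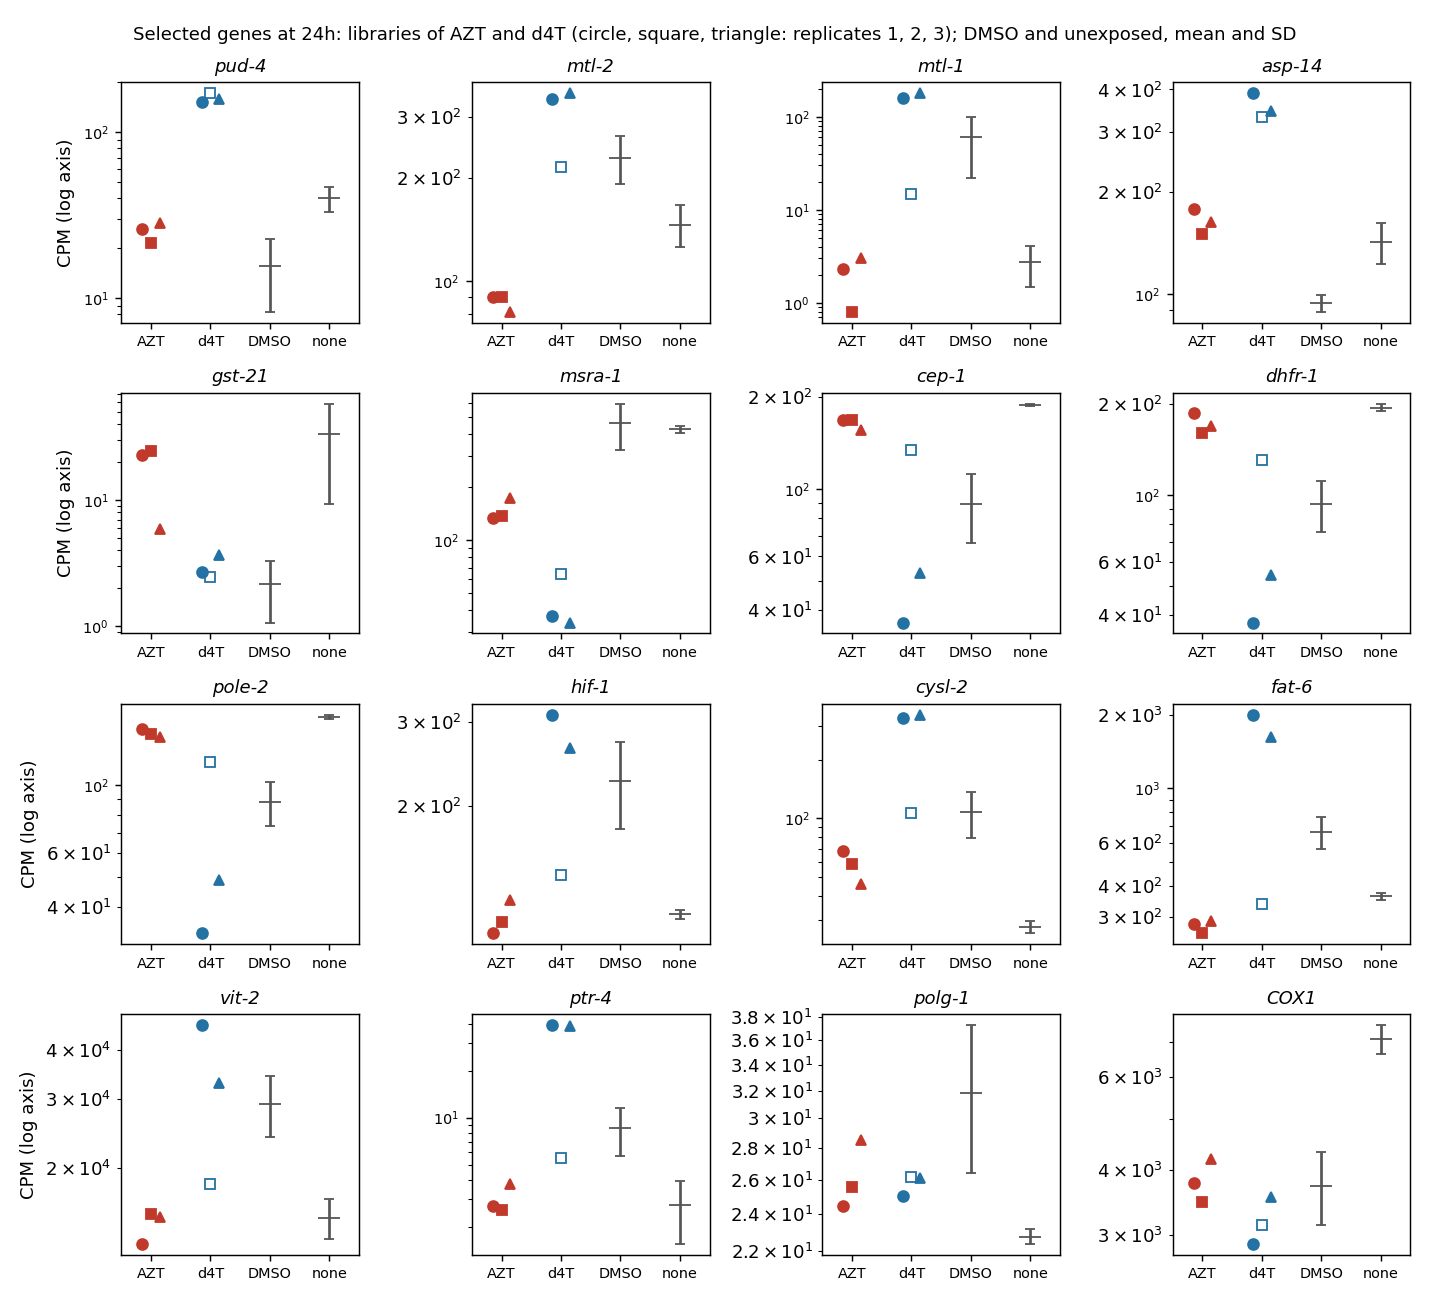
CPM of 16 genes at 24h (log axes, one panel per gene) in the AZT libraries (red) and the d4T libraries (blue), with circles, squares and triangles for replicates 1, 2 and 3 and an open square for d4T replicate 2. Grey bars are the mean ± SD of DMSO and of unexposed nematodes (none), n = 3 each, with the lower end of a bar held at 5% of the mean or above. In pud-4 the open square sits with the other d4T libraries (172 CPM), and in fat-6 (339 CPM) and cep-1 (134 CPM) near the AZT libraries.

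Among genes called in both fits, without overlap and with at least 5 CPM in a group, the largest differences were lower with AZT. This choice by itself kept replicate 2 above the AZT libraries in them. Replicate 2 was below the other d4T libraries in the genes named here. W07B8.4, a cysteine protease gene, had 0.0604, 0 and 0.176 CPM with AZT and 18.1, 0.388 and 12.1 CPM with d4T (log2 difference -6.71 ± 1.26, adjusted p = 0.000567, and -7.21 ± 1.03 without replicate 2). The neuropeptide-like gene nlp-39 had 0.302, 0.364 and 0.571 CPM with AZT and 76.2, 1.83 and 21.3 CPM with d4T (log2 difference -6.26 ± 1.02, and -6.75 ± 0.92 without replicate 2). The metallothionein gene mtl-1 had 2.3, 0.801 and 3.07 CPM with AZT and 161, 15 and 179 CPM with d4T (log2 difference -5.79 ± 0.79, adjusted p = 0.000116, and -6.24 ± 0.71 without replicate 2). On the line from AZT to d4T replicates 1 and 3 the place of replicate 2 was 0.25, 0.31 and 0.46 in W07B8.4, nlp-39 and mtl-1. Of the same kind were ech-9, an enoyl-CoA hydratase gene (log2 difference -5.18 ± 0.99, and -5.65 ± 0.91 without replicate 2), and math-38, a MATH domain gene (-4.84 ± 0.62, and -5.28 ± 0.45 without replicate 2). In unexposed nematodes mtl-1 had 2.77 ± 1.29 CPM and in DMSO 60.6 ± 38.8 CPM, so that AZT was at the unexposed level and d4T replicates 1 and 3 were above the DMSO mean.

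In the other direction the largest differences among called genes were found without replicate 2. The cuticle collagen gene col-93 had 233, 284 and 229 CPM with AZT and 7.38, 223 and 5.96 CPM with d4T. The log2 difference was 1.67 ± 1.05 (adjusted p = 0.172) with all libraries and 5.28 ± 1.34 (adjusted p = 0.0016) without replicate 2. FLT spread as widely, at 121 ± 192 CPM. The BTB domain gene btb-7 had 14.5, 14.9 and 9.75 CPM with AZT and 1.11, 10.5 and 1.47 CPM with d4T, with log2 differences of 1.60 ± 0.50 (adjusted p = 0.0108) and 3.37 ± 0.37 (adjusted p = 3.74e-08).

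Among the genes of nucleotide metabolism dhfr-1, thk-1 and dhod-1 were called higher with AZT than with d4T, and dpyd-1, dhp-1, dhp-2, atic-1 and ppat-1 were called lower. Of 23 genes of nucleotide metabolism tested, 3 (13%) were called higher and 5 (21.7%) lower, close to the 9.49% and 20% of all genes. Without replicate 2 there were 15 (65.2%) and 6 (26.1%), against 31% and 30.9% of all genes. Dihydrofolate reductase (dhfr-1), which regenerates the folate used by thymidylate synthase, had 187, 160.4 and 169 CPM with AZT and 37.7, 131 and 54.2 CPM with d4T (log2 difference 1.21 ± 0.31, adjusted p = 0.00406, and 1.96 ± 0.27 without replicate 2). Thymidine kinase (thk-1), the enzyme that phosphorylates thymidine, had 149, 149.7 and 119.6 CPM with AZT and 33.4, 122.5 and 48.4 CPM with d4T (1.03 ± 0.30, adjusted p = 0.00801, and 1.82 ± 0.24 without replicate 2). Replicate 2 overlapped the AZT libraries in thk-1 and lay below them in dhfr-1. The pyrimidine synthesis gene dhod-1 differed by 0.58 ± 0.18 (adjusted p = 0.00943), and by 0.96 ± 0.15 without replicate 2.

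Thymidylate synthase (tyms-1), which makes thymidylate, did not pass with all libraries. It had 114, 114 and 83.4 CPM with AZT and 32.7, 105 and 40.5 CPM with d4T (log2 difference 0.80 ± 0.26, 95% interval 0.26 to 1.34, adjusted p = 0.0145), and passed at 1.55 ± 0.18 without replicate 2. The ribonucleotide reductase subunits were alike in this, rnr-1 at 0.66 ± 0.31 (adjusted p = 0.07) and rnr-2 at 0.98 ± 0.34 (adjusted p = 0.0187), and 1.65 ± 0.18 and 2.11 ± 0.20 without replicate 2. The dUTPase gene dut-1, which keeps uracil out of DNA, differed by 0.74 ± 0.31 (adjusted p = 0.0461), and by 1.69 ± 0.20 without replicate 2. In rnr-1 and dut-1, d4T replicate 2 was above all 3 AZT libraries (582 and 367 CPM), and d4T replicates 1 and 3 were below them.

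The 5 genes lower with AZT did other work. dpyd-1, the dihydropyrimidine dehydrogenase that starts pyrimidine breakdown, had 68.5, 69.4 and 70.1 CPM with AZT and 141, 87.7 and 141 CPM with d4T (log2 difference -0.83 ± 0.18, adjusted p = 0.00128, and -0.97 ± 0.16 without replicate 2). The dihydropyrimidinases of the next step, dhp-1 and dhp-2, differed by -1.71 ± 0.33 and -1.02 ± 0.29 (adjusted p = 0.000599 and 0.00659), and by -2.06 ± 0.23 and -1.24 ± 0.27 without replicate 2. The purine synthesis genes atic-1 (-1.67 ± 0.28, and -1.98 ± 0.20 without replicate 2) and ppat-1 (-1.62 ± 0.29, and -1.94 ± 0.20 without replicate 2) were lower as well. All 3 d4T libraries were above all AZT libraries in these 5 genes. adsl-1, another gene of purine synthesis, had 143, 137 and 138 CPM with AZT and 157, 142 and 158 CPM with d4T, and its difference of -0.13 had an interval of -0.35 to 0.10 (-0.12 ± 0.11 without replicate 2). At 24h AZT was close to unexposed nematodes in atic-1 (78.5 ± 8.58 CPM) and d4T replicates 1 and 3 were near FLT (351 ± 137 CPM).

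Of 9 nucleoside transporter genes tested, 1 (11.1%) was called in each direction, against 9.49% higher and 20% lower over all genes. Without replicate 2, 3 (33.3%) were higher and 2 (22.2%) lower, against 31% and 30.9%. ent-6, an equilibrative transporter, had 167, 169 and 129 CPM with AZT and 47.6, 151 and 56.3 CPM with d4T (log2 difference 0.87 ± 0.26, adjusted p = 0.00973, and 1.63 ± 0.17 without replicate 2). ent-2 had 50.6, 56.2 and 54.3 CPM with AZT and 86.3, 65.7 and 87.8 CPM with d4T (-0.57 ± 0.16, adjusted p = 0.00707, and -0.64 ± 0.16 without replicate 2), and its groups did not overlap. ent-1 differed by 0.29 (interval -0.07 to 0.65), and passed at 0.62 ± 0.16 (adjusted p = 0.000863) without replicate 2, and ent-5 by 1.14 ± 0.47 (adjusted p = 0.0428) and 2.90 ± 0.30 (adjusted p = 2.31e-08) without replicate 2.

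Transcripts of mitochondrial DNA were called about as often as other genes. Of 14 genes tested, 2 (14.3%) were higher and 2 (14.3%) lower with AZT, against 9.49% and 20% of all genes. Without replicate 2 there were 4 (28.6%) and 2 (14.3%), against 31% and 30.9%. The complex I subunit genes ND1 and ND5 were higher, ND1 with 1077, 858 and 1160 CPM with AZT and 568, 667 and 772 CPM with d4T (log2 difference 0.63 ± 0.17, adjusted p = 0.00597, and 0.68 ± 0.19 without replicate 2) and ND5 by 0.54 ± 0.15 (adjusted p = 0.0059), and by 0.63 ± 0.16 without replicate 2. In these genes replicate 2 lay with the other d4T libraries, and all 6 libraries were below unexposed nematodes, at 1393 ± 112 CPM for ND1. COX1, a core subunit of cytochrome oxidase, had 3765, 3478 and 4193 CPM with AZT and 2889, 3143 and 3549 CPM with d4T, and its difference of 0.26 had an interval of -0.03 to 0.54 (0.30 ± 0.15, adjusted p = 0.0803, without replicate 2). CYTB, of complex III, differed by 0.45 ± 0.15 (adjusted p = 0.0134), and by 0.63 ± 0.15 (adjusted p = 0.000667) without replicate 2.

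The rRNA genes of mitochondrial DNA, KEF34_r02 at MtDNA 898 to 1593 and KEF34_r01 at MtDNA 10403 to 11354 in WBcel235, went the other way. KEF34_r02 had 63.1, 54.1 and 72.8 CPM with AZT and 242, 78.1 and 201 CPM with d4T (log2 difference -1.46 ± 0.32, adjusted p = 0.00134, and -1.75 ± 0.27 without replicate 2), and KEF34_r01 differed by -1.38 ± 0.35 (adjusted p = 0.00407), and by -1.69 ± 0.31 without replicate 2. The rRNA share of all counts was highest in d4T replicate 1 too, and its part in these values was not tested. ND1 overlaps ATP6 on the same strand. Over all 16 alternatives, ND1 and ND5 lost their calls in 8 and 9.

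The mitochondrial polymerase gene polg-1 had 24.5, 25.6 and 28.5 CPM with AZT and 25, 26.2 and 26.1 CPM with d4T, a difference of 0.02 with an interval of -0.28 to 0.33 (0.09 ± 0.16 without replicate 2). It did not pass in any alternative. Of 7 genes of mitochondrial DNA replication and transcription tested, 2 (28.6%) were called higher and 0 lower, against 9.49% and 20% of all genes. Without replicate 2 there were 4 (57.1%) and 0, against 31% and 30.9%. The 2 genes called with all libraries belong to factors that package and cover mitochondrial DNA. These were hmg-5, the counterpart of human TFAM, with 255, 239 and 255 CPM with AZT and 66.7, 200.5 and 98.6 CPM with d4T (log2 difference 1.03 ± 0.30, adjusted p = 0.00819, and 1.65 ± 0.28 without replicate 2), and the single-strand binding protein gene mtss-1 (0.99 ± 0.29, adjusted p = 0.00819, and 1.56 ± 0.27 without replicate 2). top-3, a topoisomerase gene, differed by 0.46 ± 0.19 (adjusted p = 0.0414), and passed at 0.89 ± 0.16 without replicate 2. Of 64 genes of mitochondrial ribosomal proteins, 23 (35.9%) were higher and 0 lower, with a median of 0.63. Without replicate 2, 57 (89.1%) were higher and 0 lower, against 31% and 30.9% of all genes. Of 26 nuclear genes of complex I subunits, 11 (42.3%) were higher and 1 lower, with 23 and 1 without replicate 2, and the lower gene was gas-1 (-0.49 ± 0.13, adjusted p = 0.00474, and -0.55 ± 0.12 without replicate 2). ndub-3, one of the 11, had 231, 220.2 and 221 CPM with AZT and 92.3, 181 and 104 CPM with d4T (log2 difference 0.83 ± 0.22, and 1.25 ± 0.20 without replicate 2). Of 32 genes of complexes II to V, 3 (9.38%) were higher and 4 (12.5%) lower, against 9.49% and 20% of all genes, and 11 and 5 without replicate 2.

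More genes of meiosis and DNA repair were called higher with AZT than over all genes. Over all genes 9.49% were called higher, against 17 of 39 genes (43.6%) of recombination and mismatch repair, 8 of 33 (24.2%) of the synaptonemal complex and meiotic axis, and 6 of 23 (26.1%) of the DNA damage checkpoint, with 1 lower in the last list. These lists were compiled from general knowledge of the genes. No member of the first or second list was lower, and without replicate 2 all 39 and 32 of 33 were higher, with 20 of 23 in the checkpoint list, against 31% of all genes. Fewer germ cells and less RNA per germ cell cannot be told apart in RNA of whole nematodes.

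The p53-like gene cep-1, which acts in the germ line after DNA damage, had 168, 168 and 156 CPM with AZT and 36.4, 134 and 52.8 CPM with d4T (log2 difference 1.14 ± 0.33, adjusted p = 0.00731, and 1.93 ± 0.28 without replicate 2). The meiotic break gene him-5 differed by 1.18 ± 0.30, the crossover RING finger gene zhp-1 by 1.29 ± 0.36 and syp-1, of the synaptonemal complex, by 0.80 ± 0.22, and the groups of none of them overlapped. Without replicate 2 their differences were 1.74 ± 0.30, 2.15 ± 0.32 and 1.27 ± 0.19. cku-80, the end-joining Ku subunit gene, had 131, 123.5 and 111 CPM with AZT and 32.2, 108 and 43.9 CPM with d4T (0.99 ± 0.27, adjusted p = 0.00563, and 1.73 ± 0.19 without replicate 2). In all 5 genes d4T replicate 2 lay below the AZT libraries and above d4T replicates 1 and 3. The kinase gene wee-1.1 of the checkpoint list was higher (1.63 ± 0.36, and 2.31 ± 0.36 without replicate 2) and phg-1 was the 1 gene of that list that was lower (-2.78 ± 0.52, and -3.20 ± 0.39 without replicate 2). Levels of cep-1 in unexposed nematodes were 189 ± 1.13 CPM and in DMSO 89.3 ± 22.9 CPM, so that AZT was near the first and d4T replicates 1 and 3 below the second.

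With all libraries, replication and division genes had a smaller share of calls than the meiosis and repair lists above. Of 35 genes of the replication fork, 5 (14.3%) were higher and 0 lower, against 9.49% higher over all genes. Without replicate 2 all 35 were higher, against 31% of all genes. pole-2, a subunit of DNA polymerase epsilon, had 154, 148 and 144 CPM with AZT and 32.7, 119.1 and 48.9 CPM with d4T (log2 difference 1.15 ± 0.31, adjusted p = 0.0057, and 1.91 ± 0.26 without replicate 2), and the origin licensing gene cdc-6 differed by 0.81 ± 0.23, and by 1.43 ± 0.16 without replicate 2. Of 46 genes of cyclins, spindle and kinetochore, 5 (10.9%) were higher, near the 9.49% of all genes, and 44 (95.7%) without replicate 2, against 31%. Among the 5 was the survivin counterpart bir-1 (1.05 ± 0.27, and 1.65 ± 0.23 without replicate 2). The 1 lower gene was cki-1, an inhibitor of cyclin-dependent kinases, with 5.5, 7.21 and 6.45 CPM with AZT and 35.2, 6.77 and 42.3 CPM with d4T (-2.14 ± 0.44, adjusted p = 0.000906, and -2.55 ± 0.33 without replicate 2).

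Lists of oocyte and germ granule genes hardly passed with all libraries, where 9.49% of all genes were higher and 20% lower. Without replicate 2 these shares of all genes were 31% and 30.9%. Of 33 maternal RNA-binding regulators 0 were called with all libraries, and 30, all higher, without replicate 2. Of 23 genes of P granules and germline Argonautes 1 was higher, pgl-2 (0.85 ± 0.25, adjusted p = 0.00801, and 1.31 ± 0.23 without replicate 2), and 20 without replicate 2. Of 21 eggshell genes 0 were higher and 1 was lower, and 18 and 2 without replicate 2. Summed levels of the maternal regulators were 14300 to 15700 CPM with AZT and 5670, 17200 and 5810 CPM with d4T, so that replicate 2 was above AZT. Of 33 proteasome subunits 4 (12.1%) were higher, near the share of all genes, such as pbs-4 (0.97 ± 0.29, adjusted p = 0.0093, and 1.73 ± 0.23 without replicate 2), and all 33 without replicate 2.

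More genes of the HIF-1 pathway, which acts under low oxygen and in the hydrogen sulfide response, were called lower with AZT than over all genes. Of 21 genes tested 15 (71.4%) were lower and 0 higher, against 20% lower over all genes. Without replicate 2, 16 (76.2%) were lower and 1 higher, against 30.9% and 31%. In 14 of the 21 the groups did not overlap, against 30.2% of all genes. hif-1 itself, the transcription factor, had 108, 114 and 127 CPM with AZT and 312, 143 and 265 CPM with d4T (log2 difference -1.04 ± 0.20, adjusted p = 0.00062, and -1.25 ± 0.15 without replicate 2). DMSO had 226 ± 46.7 CPM and unexposed nematodes 118 ± 2.57 CPM.

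Known targets of HIF-1 differed by unequal amounts, and the list did not sort them by whether HIF-1 raises or lowers them. cysl-2, a cysteine synthase family gene, had 68.2, 58.4 and 46.2 CPM with AZT and 329, 107 and 342 CPM with d4T (log2 difference -2.17 ± 0.36, adjusted p = 0.000327, and -2.49 ± 0.30 without replicate 2). The ferritin gene ftn-1, for iron storage, had 1.81, 1.09 and 2.72 CPM with AZT and 59.8, 2.72 and 68.6 CPM with d4T (-4.5 ± 0.80, and -4.98 ± 0.67 without replicate 2), and replicate 2 overlapped AZT. rhy-1, a regulator of HIF-1, had 17.7, 21.1 and 17.4 CPM with AZT and 34.4, 29.1 and 35 CPM with d4T (-0.81 ± 0.17, adjusted p = 0.00121, and -0.84 ± 0.18 without replicate 2), with replicate 2 close to its group. Of the genes that mark HIF-1 for breakdown, the prolyl hydroxylase gene egl-9 differed by -0.40 (interval -0.72 to -0.09, adjusted p = 0.0297) and passed at -0.47 ± 0.15 (adjusted p = 0.00791) without replicate 2. vhl-1 differed by 0.13 (interval -0.22 to 0.49), and by 0.20 ± 0.19 without replicate 2.

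Most detoxification genes were not called, and those called were more often lower than higher with AZT. Of 44 glutathione S-transferases 3 were higher and 13 lower, of 63 UDP-glucuronosyltransferases 2 and 17, and of 66 cytochromes P450 3 and 15. The shares lower were 29.5, 27 and 22.7%, against 20% of all genes, and 43.2, 39.1 and 43.9% without replicate 2, against 30.9%. Without it 4, 7 and 8 genes were higher. gst-10 had 50.8, 43.1 and 36.7 CPM with AZT and 134.5, 70.9 and 143 CPM with d4T (log2 difference -1.42 ± 0.22, adjusted p = 0.000221, and -1.62 ± 0.18 without replicate 2). gst-4, which reports activity of SKN-1, had 30.9, 22.6 and 24.1 CPM with AZT and 33.7, 33.8 and 49.6 CPM with d4T. The groups did not overlap, and the difference of -0.59 (interval -0.97 to -0.22) did not pass with all libraries (adjusted p = 0.0102) and passed without replicate 2 (-0.63 ± 0.19, adjusted p = 0.00365). skn-1, the transcription factor of the oxidative stress response, differed by 0.26 (interval -0.10 to 0.61, adjusted p = 0.205), and passed at 0.60 ± 0.15 (adjusted p = 0.00112) without replicate 2.

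Of the respiratory genes known from long-lived mutants, the ubiquinone synthesis gene clk-1 was higher with AZT, with 75.4, 68.2 and 72.3 CPM against 31.4, 58.5 and 36.5 CPM with d4T (log2 difference 0.77 ± 0.21, adjusted p = 0.00595, and 1.14 ± 0.20 without replicate 2). isp-1, the Rieske protein gene of complex III, had 249.8, 245 and 279 CPM with AZT and 300.9, 280.3 and 260 CPM with d4T, and its difference of -0.12 had an interval of -0.35 to 0.11 (-0.06 ± 0.11 without replicate 2). Of 20 genes of superoxide dismutases, catalases and peroxiredoxins, 3 (15%) were higher and 2 (10%) lower, against 9.49% and 20% of all genes. Without replicate 2 there were 7 (35%) and 5 (25%), against 31% and 30.9%. Of 15 cytosolic heat shock genes 5 (33.3%) were lower and 0 higher, but without replicate 2 there were 7 (46.7%) higher and 5 (33.3%) lower. Members induced by heat and members expressed without it were not separated in this list. The summed level of the list was higher with AZT, at 9770 to 10400 CPM, than in d4T replicates 1 and 3, at 6290 and 5380 CPM, and replicate 2 had 11000 CPM. Among the lower genes was hsp-16.2, with 1.15, 0.437 and 2.46 CPM with AZT and 17.6, 4.159 and 13.6 CPM with d4T (-3.06 ± 0.75, adjusted p = 0.00318, and -3.38 ± 0.81 without replicate 2).

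Many fat and yolk genes of the intestine were lower with AZT. Of 16 fatty acid desaturases and elongases 11 (68.8%) were lower and 0 higher, against 20% and 9.49% of all genes. Without replicate 2 there were 14 (87.5%) lower, against 30.9%. The stearoyl-CoA desaturase gene fat-6 had 281, 257 and 288 CPM with AZT and 1999, 339 and 1622 CPM with d4T (log2 difference -2.26 ± 0.40, adjusted p = 0.000457, and -2.66 ± 0.29 without replicate 2). The elongase gene elo-2 differed by -1.75 ± 0.30 and the lysosomal lipase gene lipl-1 by -3.25 ± 0.43, with 34.3 CPM in replicate 2 between 8.16 to 16.7 CPM with AZT and 142 to 151 CPM in the other d4T libraries.

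Of 7 genes, the vitellogenins and the yolk receptor, 4 were lower and 0 higher, against 20% and 9.49% of all genes. Without replicate 2 there were 5 and 1, against 30.9% and 31%. vit-2 had 12750, 15210 and 14910 CPM with AZT and 46220, 18150 and 32830 CPM with d4T (log2 difference -1.18 ± 0.26, adjusted p = 0.00158, and -1.41 ± 0.23 without replicate 2), and vit-5 (-1.16 ± 0.24, and -1.42 ± 0.19 without replicate 2) and vit-6 (-1.12 ± 0.25, and -1.35 ± 0.22 without replicate 2) were alike. Yolk proteins are made in the intestine, and 17 of 25 intestine markers were lower and 0 higher (20 and 2 without replicate 2), the GATA factor gene elt-2 among them (-1.46 ± 0.29, and -1.78 ± 0.22 without replicate 2). The summed level of these markers was 6940 to 8970 CPM with AZT and 26000, 8130 and 20300 CPM with d4T, against 14500 to 21900 CPM in DMSO and 8550 to 9350 CPM in unexposed nematodes. Replicate 2 was inside the AZT range, d4T replicate 1 was above the DMSO range and d4T replicate 3 within it.

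Most genes of the moulting cycle were lower with AZT, while the cuticle lists were mixed. Of 33 genes of the moulting cycle and apical matrix 24 (72.7%) were lower and 0 higher, against 20% and 9.49% of all genes. Without replicate 2 there were 27 (81.8%) and 3, against 30.9% and 31%. Among the lower genes was the patched-related gene ptr-4, with 2.72, 2.55 and 3.73 CPM with AZT and 39.1, 5.49 and 39 CPM with d4T (log2 difference -3.20 ± 0.52, adjusted p = 0.000327, and -3.62 ± 0.40 without replicate 2). The lipocalin gene lpr-3 (-2.66 ± 0.45, and -3.08 ± 0.32 without replicate 2) and acn-1 (-2.45 ± 0.43, and -2.86 ± 0.30 without replicate 2), needed for moulting, behaved alike. Of 16 cuticle collagens of the dpy, rol, sqt, bli and lon classes 7 were lower and 0 higher, with and without replicate 2, such as dpy-17, with 42, 55.9 and 68.2 CPM with AZT and 544, 82.2 and 411 CPM with d4T (-2.64 ± 0.45, and -3.05 ± 0.34 without replicate 2). The hypodermal collagen gene dpy-7 differed by -3.08 ± 0.54, and by -3.50 ± 0.44 without replicate 2. Of 109 collagens of the col series 26 (23.9%) were lower and 0 higher with all libraries, near the 20% of all genes, and 38 and 18 without replicate 2. The summed level of the col series ran the other way, at 11500 to 12600 CPM with AZT and 6430, 15100 and 4690 CPM with d4T.

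Major sperm protein genes, which hermaphrodites transcribe before oogenesis, were low with AZT. Of 23 major sperm protein genes 14 were lower and 0 higher, with a median of -3.1, against 20% lower over all genes. Without replicate 2 there were 22 lower, against 30.9%. In 1 of the 23 alone the groups did not overlap, against 30.2% of all genes. Their summed level was 2.6 to 11 CPM with AZT and 76.5, 4.99 and 63.2 CPM with d4T, against 9.73 to 29.9 CPM in DMSO and 2.03 to 6.66 CPM in unexposed nematodes. msp-50 had 0.302, 0.0728 and 0.878 CPM with AZT and 5.96, 0.388 and 5.61 CPM with d4T (log2 difference -3.12 ± 0.68, adjusted p = 0.00138, and -3.57 ± 0.50 without replicate 2), and it shares sequence with other msp genes. Other genes of sperm function did not follow them. Of 26 tested 7 (26.9%) were lower and 0 higher, and 12 and 4 without replicate 2, and their summed level was 211 to 224 CPM with AZT and 139, 224 and 146 CPM with d4T. The moult and major sperm protein genes differed in the same libraries as the germline and intestine genes above, and their part in those differences was not tested.

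**Figure D5:**
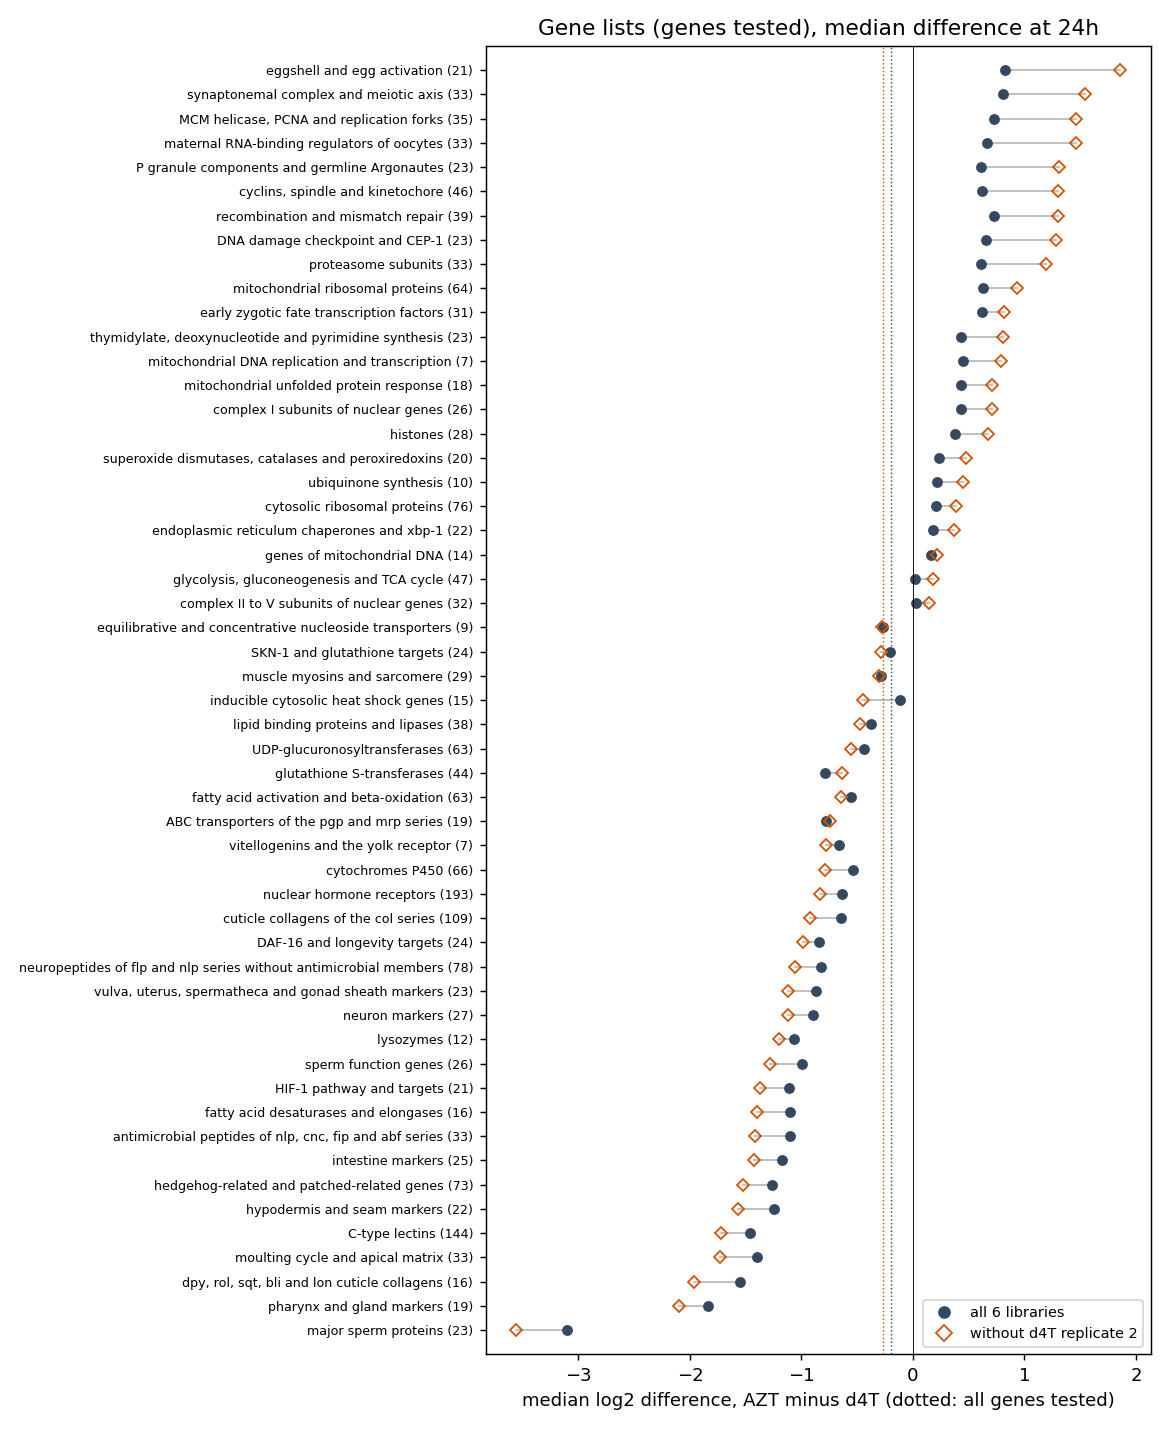
Median log2 difference, AZT minus d4T (horizontal axis), of 53 gene lists with the number of genes tested in brackets, with all libraries (dots) and without d4T replicate 2 (diamonds). Dotted lines are the medians of all genes tested (-0.198 and -0.265). Germline, replication and mitochondrial ribosome lists lie to the right of 0. Farthest to the left lie major sperm proteins (-3.1 with all libraries), pharynx markers and cuticle collagens of the dpy, rol, sqt, bli and lon classes.

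Markers of somatic tissues were more often called lower with AZT than the 20% of all genes. Lower were 13 of 27 neuron markers, 11 of 19 pharynx and gland markers (57.9%), 12 of 22 hypodermis and seam markers (54.5%), 11 of 23 markers of the vulva, uterus, spermatheca and gonad sheath (47.8%) and 10 of 29 muscle genes (34.5%), with 0 higher in each. Without replicate 2 the lower genes were 18, 16, 16, 14 and 13, and the higher genes 1, 0, 2, 5 and 3. Over all genes 30.9% were then lower and 31% higher. In summed level pharynx and gland markers were 73.4 to 79.8 CPM with AZT and 341, 108 and 239 CPM with d4T, above the 65.6 to 84.9 CPM of DMSO in all 3 d4T libraries. For neuron markers the sums overlapped, at 1040 to 1160 CPM with AZT and 1090, 1320 and 960 CPM with d4T, so that the count and the sum differ. Muscle sums overlapped too, at 5180 to 5290 CPM with AZT and 6430, 5450 and 5250 CPM with d4T. The sum over vulva, uterus, spermatheca and gonad sheath markers was higher with AZT, at 1130 to 1220 CPM, than in d4T replicates 1 and 3, at 1090 and 1030 CPM, and replicate 2 had 1270 CPM. Of 144 C-type lectins, secreted proteins many of which respond to bacteria, 53 (36.8%) were lower and 0 higher, and 83 and 6 without replicate 2. clec-67 had 2.48, 2.04 and 2.33 CPM with AZT and 54.2, 7.93 and 43.3 CPM with d4T (log2 difference -3.94 ± 0.50, adjusted p = 5.73e-05, and -4.35 ± 0.37 without replicate 2), and clec-258 differed by -2.98 ± 0.44, and by -3.26 ± 0.39 without replicate 2. Of 12 lysozymes 6 were lower, such as lys-8 (-1.53 ± 0.28, and -1.83 ± 0.21 without replicate 2), and of 33 antimicrobial peptide genes 18 (54.5%) were lower. Without replicate 2 there were 6 lysozymes and 20 antimicrobial peptide genes lower, and 0 and 2 higher.

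The chromosomes differed in their share of calls. Over all genes 9.49% were higher and 20% lower, with a median of -0.198, and 31% and 30.9% without replicate 2. On the X chromosome, which is mostly silent in the germ line, 46 of 2303 genes (2%) were higher and 735 (31.9%) lower, with a median of -0.678. On chromosomes I and III 13.6% and 14.9% were higher and 15.4% and 14.5% lower, with medians of 0.221 and 0.217. Without replicate 2 the X chromosome had 11% higher and 47.7% lower, and chromosome I 44.4% and 24.2%.

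The difference between AZT and d4T was not the same after 72h. At 72h, 1930 genes (12%) differed, 1292 higher and 638 lower with AZT. The difference itself changed from 24h to 72h in 8536 of 16048 genes (53.2%), and in 10851 of 16367 (66.3%) without d4T replicate 2 of 24h. pud-4, lower with AZT at 24h, had 410.3, 372 and 352 CPM with AZT and 65.8, 106 and 80.1 CPM with d4T at 72h, a log2 difference of 2.17 (adjusted p = 2.04e-06). hif-1 turned in the same way, with 196, 168 and 148 CPM with AZT and 87.8, 96.5 and 88.8 CPM with d4T (0.91, adjusted p = 0.00222), as did vit-2 (1.51, adjusted p = 0.000275) and atic-1 (1.32, adjusted p = 0.00178). syp-1, higher with AZT at 24h, was lower at 72h (-0.98, adjusted p = 0.00235). For cep-1 the difference at 72h was -0.95 (adjusted p = 0.0279), and for mtl-1 it was -0.08 (adjusted p = 0.93), with 79.6 to 178 CPM with AZT and 99.9 to 189 CPM with d4T. The 24h libraries enter both comparisons, so that the turn of single genes is not independent of the differences at 24h.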

How the data were processed

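RNA of whole nematodes was sequenced by the authors, who per the labels' processing notes and their methods trimmed reads with Trimmomatic 0.32, aligned them to WBcel235 with TopHat2 2.0.8 and Bowtie2 2.1.0 and counted them per gene. The deposited values are raw counts per gene, and 5 closing entries for reads assigned to no gene were left out (10.5 to 26.5% of reads). Totals on genes were 11.3 to 30.6M over the 30 libraries, and no pair of libraries held identical counts. The model used all 30 libraries in 10 groups of 3 with edgeR 4.0.16 in R 4.3.3, TMM factors, filterByExpr (minimum count 10, minimum total 15), glmQLFit (robust) and glmQLFTest, with 20 residual degrees of freedom, with Benjamini-Hochberg adjustment over all genes tested. A gene was called at an adjusted p under 0.01, the threshold of the study. The common biological coefficient of variation was 0.24, and 0.176 without d4T replicate 2. Log2 CPM carry a prior count of 2. DESeq2 1.42.0 was an alternative, beside other scaling, no filter, other sets of libraries, a replicate block and leaving out each replicate. The test was checked on simulated counts. The libraries of each simulated group shared a mean per gene, so that the check does not cover a library such as d4T replicate 2.

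The comparison, the 54 gene lists and the tests were chosen with earlier results of these data known. Symbols were matched for 43623 of 46726 gene entries, and 66 list symbols found no match. Genes of mitochondrial DNA were taken by chromosome and named by position. Named genes were the 10 with the largest difference in each direction among those called with and without d4T replicate 2, with at least 5 CPM in a group and groups apart, the 5 largest in each direction without it, up to 3 per list and direction with the smallest adjusted p, all members of the nucleotide, transporter, HIF-1 and mitochondrial DNA lists, and 6 genes that the study names. The text gives a choice of these. Lists were described by counts and medians without a test.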

Additional observations from a re-analysis of the deposited data

Results flagged for a closer look

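The difference between AZT and d4T differed between 24h and 72h in 8536 of 16048 genes by the interaction test of edgeR (adjusted p under 0.01). The libraries of d4T at 24h include replicate 2, which resembles AZT, and without it 10851 of 16367 genes passed. With 3 libraries per group, single libraries were not tested for distance from their group.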

How the results depend on the processing

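The count of 4731 genes ranged from 772 to 10131 when 1 of the 6 libraries was left out, with 13 to 5075 genes higher and 759 to 5056 lower with AZT. The count rose without d4T replicate 2 and fell without any other. The 15 libraries of 24h alone gave 3 calls, 0 higher and 3 lower, and the 6 libraries alone gave 0, 0 and 0. Without d4T replicate 2 these fits gave 9086 calls (4047 and 5039) and 10522 (4706 and 5816), and DESeq2 gave 10373 (5062 and 5311). For the change from 24h to 72h, the count ranged from 6568 to 10851 over libraries left out. The residuals of equal replicate numbers correlated at -0.204, 0.223 and 0.377. Unequal numbers were not compared, so that these values cannot decide whether replicate numbers pair the libraries. A replicate block gave 4837 calls (1769 and 3068) and 8465 changed between times. The median place of replicate 2 was 0.0574 to 0.104 with other minimum differences and 0.0783 to 0.0786 with other scaling. None of the 90 genes followed through 16 alternatives changed direction while called, 71 of 89 lost their call in the 6 libraries alone and 69 of 90 in the 24h libraries alone. Fits with a single group of 2 libraries assume the same spread as the other groups.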

Other observations

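Gene classes outside the lists, taken by the letters before the hyphen of the symbol, are given beside the shares of all genes, 9.49% higher and 20% lower (31% and 30.9% without d4T replicate 2). Subunits of RNA polymerase II and its relatives (rpb class) were higher with AZT in 8 of 11 genes and lower in 0, and in all 11 without d4T replicate 2. The Mediator class (mdt) was higher in 10 of 19 and lower in 0, and in 17 without replicate 2. Nuclear pore genes (npp) were higher in 1 of 26 with all libraries and in 25 without replicate 2. The F-box class fbxb was higher in 19 of 93 genes and lower in 2 (34 and 5 without replicate 2), and in 9 of its 39 genes placed on the line from AZT to d4T replicate 2 was nearer to d4T, against 3.11% of all genes placed. The unc class, named for uncoordinated movement and rich in neuron and muscle genes, was lower in 44 of 92 genes (47.8%) and higher in 0, and lower in 54 and higher in 16 without replicate 2. The cutl class of cuticle proteins was lower in 19 of 28 genes, the dyf class of ciliated neurons in 9 of 12 and the asp class of aspartyl proteases in 10 of 12, with 0 higher in each. Without replicate 2 they were lower in 24, 10 and 11 genes.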
